A study of Mus musculus with 6 samples.

Results

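The proteasome is the cell's main machine for degrading proteins tagged with ubiquitin. Its members were taken from the table of gene values as the protein-coding genes named Psma to Psmg followed by a number, which gave 51 genes of 56884. They encode the subunits of the barrel-shaped 20S core, the subunits of the 19S regulatory particle that recognises and unfolds substrates, the activators and inhibitors that bind the core, and chaperones that build the particle, with a few genes that share the name alone. Psmb8, Psmb9 and Psmb10 (catalytic subunits of the immunoproteasome) and Psme1 and Psme2 (subunits of the PA28 activator), 5 genes in all, were kept apart from the other 46.

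Bulk sequencing of total RNA gave 6 libraries of mouse neutrophils, sorted from bone marrow as mature cells by surface CD101 and Ly6G and then kept in culture. In 3 libraries the medium held DKK1 (Dickkopf-1, a secreted Wnt antagonist) and in 3 it did not (control). For strain, sex, age, genotype, dose and culture time the sources used here give no value. Whether the 3 libraries of a group stand for 3 mice or 3 cultures is not stated either, and p-values here measure the spread among libraries, possibly technical only.

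In the catalytic core, peptides are cut by 3 beta subunits, encoded by Psmb6 (caspase-like site), Psmb7 (trypsin-like site) and Psmb5 (chymotrypsin-like site). Interferon-gamma raises Psmb9, Psmb10 and Psmb8, whose products take the places of these subunits in newly built particles and change which peptides are released for display on MHC class I. The PA28 activator of Psme1 and Psme2 is induced by the same cytokine, while genes of the constitutive particle are raised together by the transcription factor Nfe2l1 when proteasome capacity is short. Myeloid cells commonly hold immunoproteasomes already without added cytokine.

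Before the members' values, the labelled cell type was set against its markers. All 10 mature neutrophil markers were lower in the DKK1 libraries, beside 36.1% of all tested genes. Their summed normalized count was between 705902 and 731660 in control and between 3165 and 3806 in DKK1. The sort markers themselves were nearly lost: Cd101 had a mean normalized count of 5098 ± 178 (SD, n = 3) in control and 3.53 ± 2.31 in DKK1, and Ly6g 1338 ± 72.7 and 5.96 ± 1.30. All 3 DKK1 libraries thus go against their label as mature neutrophils, and no result can be given without them. Of 12 macrophage markers 4 were higher (Adgre1, Cd68, Ms4a7 and Gpnmb), 5 were lower and 3 did not pass the test. These counts lie near the shares over all tested genes, 35.1% higher and 36.1% lower. With equal total reads 5 of the 12 were higher and 2 lower, beside 43.6% and 29.2% of all genes. The sum of the macrophage markers lay between 4780 and 5037 in control and between 28798 and 30820 in DKK1. The DKK1 sum was mostly Gpnmb and Cd68, with DKK1 means of 14292 and 10121. The 5 that were lower were Csf1r, Mrc1, C1qa, C1qb and C1qc, and C1qa had 0 reads in DKK1. Sums of monocyte markers were 2608 to 2725 in control and 138 to 192 in DKK1, with 2 of 3 markers lower, beside 36.1% of all genes. Those of 8 dendritic cell markers were 1614 to 1686 and 649.7 to 753, mostly Itgax, which fell from a mean of 1642 to 629. Of the 6 dendritic cell markers tested 3 were higher (Ccr7, Xcr1 and Zbtb46), 1 was lower and 2 did not pass. Over all genes 35.1% were higher and 36.1% lower. The median log2 change of the 6 was 1.52. Sums of B cell markers were 1449 to 1587 in control and 41.2 to 98.4 in DKK1, those of T and NK cell markers 44.3 to 74.7 and 0 to 2.98, and those of erythroid markers 969.7 to 1002 and 174 to 820.1. In such bulk samples fewer cells of a type and less RNA per cell cannot be told apart, and the part of these marker differences in the results below was not tested. Recovered reads per library ran from 5188116 to 9851961, and DKK1 replicate 2, the shallowest, differed more from its group than any other library. Leaving it out moved the members' log2 changes by at most 0.19 and by 0.07 in the median.

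Transcripts of the constitutive proteasome were far more abundant with DKK1, while those of the immunoproteasome's own catalytic subunits were less abundant or did not pass the test. Of every 1000000 reads, the 51 genes took 1237, 1243 and 1248 in the control libraries and 5084, 4710 and 5035 in the DKK1 libraries, a 3.98-fold difference of the means. The 46 other members alone went from 1009.5 ± 5.95 (SD, n = 3) to 4810 ± 186, and the immunoproteasome set from 233 ± 11.0 to 133 ± 18.2. The groups did not overlap in any of these shares. Such shares set the libraries to equal total reads, unlike the normalized counts used below, which give smaller rises and larger falls. In normalized counts the median log2 change was 1.60 over the 49 tested members and -1.58 in the immunoproteasome set. With equal total reads these medians were 2.13 and -1.05.

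Levels below are normalized counts, and log2 changes are DKK1 minus control taken after adding 1 to each value. The change of a low gene depends on that added value and can be understated or overstated. A gene was called when its adjusted p from limma over 16265 genes was under 0.05. Of the 46 other members 44 passed the filter on low values, and 39 of these rose, 2 fell and 3 did not pass the test. Of the immunoproteasome set 1 rose, 3 fell and 1 did not pass. The difference between the groups reached most of the transcriptome: 35.1% of all tested genes rose, 36.1% fell and 71.2% passed in either direction. The median log2 change was 1.75 in the 44 other members and -1.58 in the immunoproteasome set, against -0.03 over all genes. Scaling the libraries to equal total reads moved the median of all genes to 0.44, and then 43.6% of all genes rose and 29.2% fell. With that scaling, which called 72.8% of all genes, 41 of the other members rose and 1 fell, and the immunoproteasome set stayed at 1 and 3. Count tests on the recovered reads gave the same counts for both sets, 39 and 2 and 1 and 3: edgeR called 70.1% of all genes (33.8% higher, 36.3% lower) and DESeq2 65.7% (31.6% higher, 34.1% lower).

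**Figure D1:**
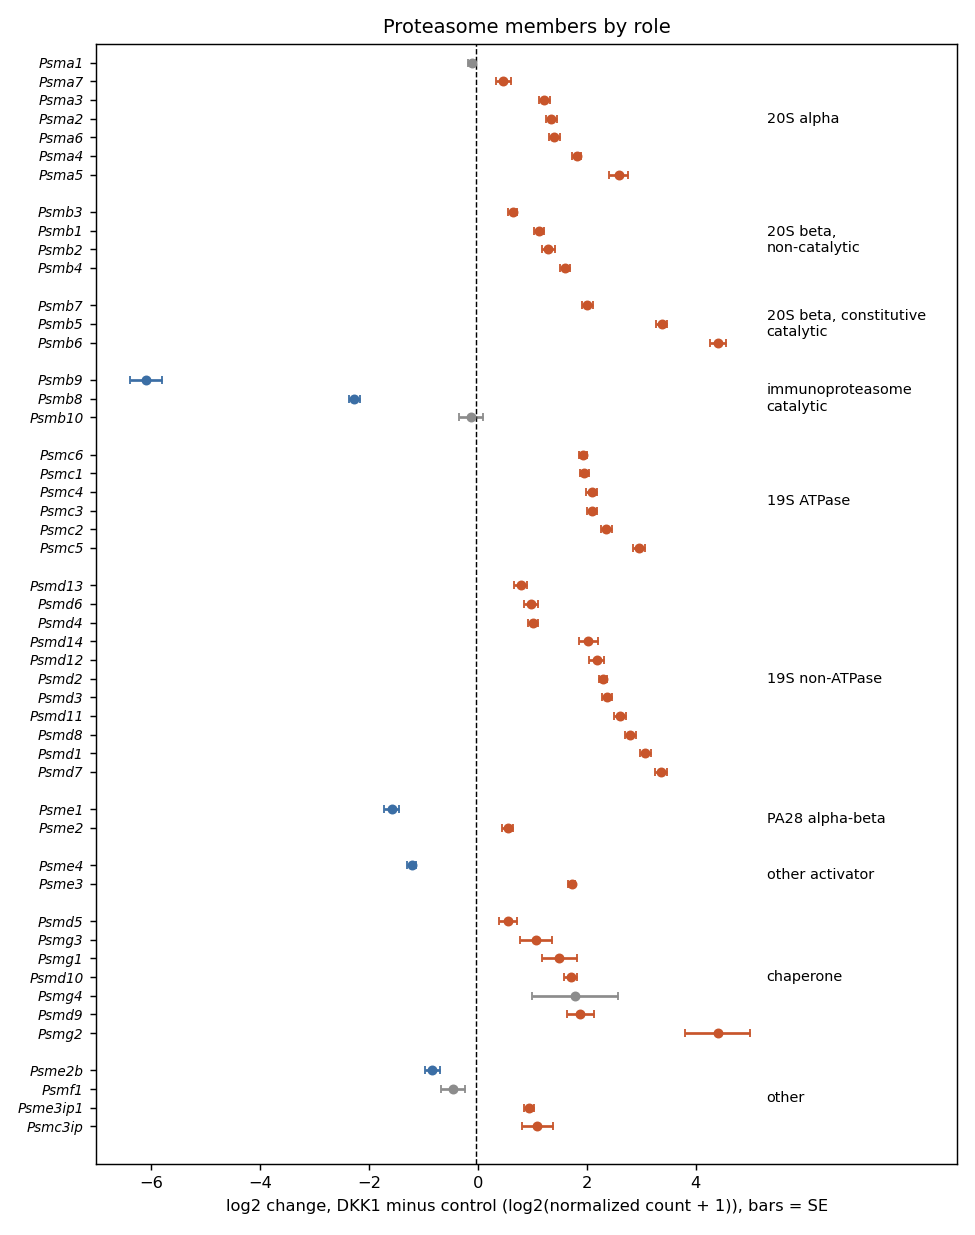
The log2 change (DKK1 minus control, horizontal axis, log2(value + 1) scale) of the 49 tested members, one point a gene with its standard error, grouped by role, with orange for rises, blue for falls and grey for genes that did not pass, and the dashed line marks the median of all genes at -0.03. Points of the 19S ATPases and of the constitutive catalytic subunits lie at 1.93 and above, while Psmb8, Psmb9, Psme1 and Psme4 lie below -1.

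Among core subunits the largest rises and falls were those of catalytic subunits, so the stretch upstream of the RefSeq start (GRCm38.p6) is shown for those that rose most and fell most, 250 bases each, with capitals marking matches to 4 short motifs. The motifs were searched on both strands in windows from 250 bases before to 50 bases after the start: TGACNNNGC (the antioxidant-type element), GAAA and GAAA with NN between them (the interferon-stimulated element), TTCNNNGAA (the interferon-gamma activated site) and CCAAT. In Psmb5 (chr14:54617996-54618245, minus strand) the match TGACGTCGC lies at bases -47 to -39, and in Psmb6 (chr11:70525107-70525356, plus strand) TGACGGAGC lies at -9 to -1. In Psmb8 (chr17:34197945-34198194, plus strand) TTCCCAGAA lies at -97 to -89, and in Psmb9 (chr17:34187331-34187580, minus strand) ATTGG, the reverse complement of CCAAT, lies at -8 to -4.
Psmb5: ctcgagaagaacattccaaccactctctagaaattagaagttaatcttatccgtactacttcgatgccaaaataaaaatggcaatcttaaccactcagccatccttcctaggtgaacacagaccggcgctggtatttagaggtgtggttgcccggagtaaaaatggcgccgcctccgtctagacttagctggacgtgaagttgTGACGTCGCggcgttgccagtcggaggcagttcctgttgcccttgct
Psmb6: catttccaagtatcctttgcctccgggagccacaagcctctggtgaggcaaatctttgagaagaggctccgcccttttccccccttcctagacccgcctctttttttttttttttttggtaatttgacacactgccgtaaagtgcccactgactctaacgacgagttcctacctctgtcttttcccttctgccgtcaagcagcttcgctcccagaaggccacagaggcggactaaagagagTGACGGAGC
Psmb8: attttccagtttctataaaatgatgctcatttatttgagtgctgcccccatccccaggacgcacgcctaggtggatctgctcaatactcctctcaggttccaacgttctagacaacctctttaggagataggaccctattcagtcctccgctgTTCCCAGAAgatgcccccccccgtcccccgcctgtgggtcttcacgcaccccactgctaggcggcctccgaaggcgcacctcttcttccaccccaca
Psmb9: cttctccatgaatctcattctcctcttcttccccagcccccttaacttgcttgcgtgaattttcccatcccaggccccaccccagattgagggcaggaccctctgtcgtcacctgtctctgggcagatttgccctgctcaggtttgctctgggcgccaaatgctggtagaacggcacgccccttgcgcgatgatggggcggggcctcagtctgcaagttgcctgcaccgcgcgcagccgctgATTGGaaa
RefSeq and GENCODE place some starts differently. The stretches of Psmb8 and Psmb9 are upstream of the RefSeq start only and lie inside the GENCODE spans of these genes given below. A match is a description of the letters and no evidence of binding. Of the 51 members 43 had a window in the RefSeq table. TGACNNNGC was found in 6 of these (14.0%) and in 12.5% of all 27025 windows, the interferon-stimulated element in 5 (11.6%) and in 3.49%, TTCNNNGAA in 3 (6.98%) and in 8.47%, and CCAAT in 15 (34.9%) and in 37.9%. By direction, TGACNNNGC was in 5 of 33 members that rose and in 1 of 5 that fell (Psme4). The interferon-stimulated element was in 3 of those 33 and 1 of those 5, TTCNNNGAA in 2 and 1, and CCAAT in 12 and 1.

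Psmb9, the immunoproteasome's caspase-position subunit, fell further than any other of the 49 tested members. Its normalized counts were 550.2, 573 and 634 in the 3 control libraries and 12.7, 6.87 and 4.90 in those with DKK1, in the order of their replicate numbers, as throughout. Every DKK1 library was far below every control library, and the 28 reads left in DKK1 compare with 1658 in control. The mean was 71.9-fold lower, and the log2 change was -6.09 (SE 0.29, limma adjusted p = 8.74e-08). The pooled reads gave a 64.6-fold lower level (95% exact interval 44.5 to 97.5, counting error only). They were scaled by each group's mean normalized count per read, not weighted by depth, which shifts this ratio and its interval. Psmb9 (ENSMUSG00000096727, chr17:34181987-34187764, minus strand, GRCm38) stands head to head with Tap1, the transporter that carries proteasome products into the endoplasmic reticulum. Their RefSeq starts are 226 bases apart and the genes share 212 exonic bases on opposite strands, so with the strandedness unstated some reads of the pair could be assigned to either gene.

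Psmb8, which replaces Psmb5 at the chymotrypsin-like site, had normalized counts of 667, 613 and 733 in control and 149.8, 137 and 129 in DKK1. The groups were well separated, with means of 671 ± 60.0 and 139 ± 10.5 (SD, n = 3), a 4.84-fold lower level. On the log2 scale this was -2.26 with an SE of 0.11 (limma adjusted p = 7.91e-08). Psmb8 (ENSMUSG00000024338, chr17:34197721-34201454, plus strand) begins 496 bases after the end of Tap1 in the MHC class II region and shares 498 exonic bases with Gm20496 on the other strand. The neighbours on that stretch of chromosome 17 that carry peptides to MHC class I were lower as well: Tap1 went from 1254, 1343 and 1312 to 36.5, 26.1 and 26.9, and Tap2, its partner, from 1033, 1096 and 1129 to 152, 141 and 160.0.

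Psmb10, the immunoproteasome's trypsin-position subunit, did not pass the test. Its normalized counts were 40.6, 54.7 and 59.1 in control and 52.2, 46.7 and 41.6 in DKK1. The groups overlapped, and the log2 change of -0.12 (SE 0.22) had a limma adjusted p of 0.646. With equal total reads the sign turned, at 0.40 and an adjusted p of 0.151. Psmb10 (ENSMUSG00000031897, chr8:105935735-105938444, minus strand) had the lowest level per kilobase of the 5 genes in control. It rested on 146 control and 155 DKK1 reads.

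**Figure D2:**
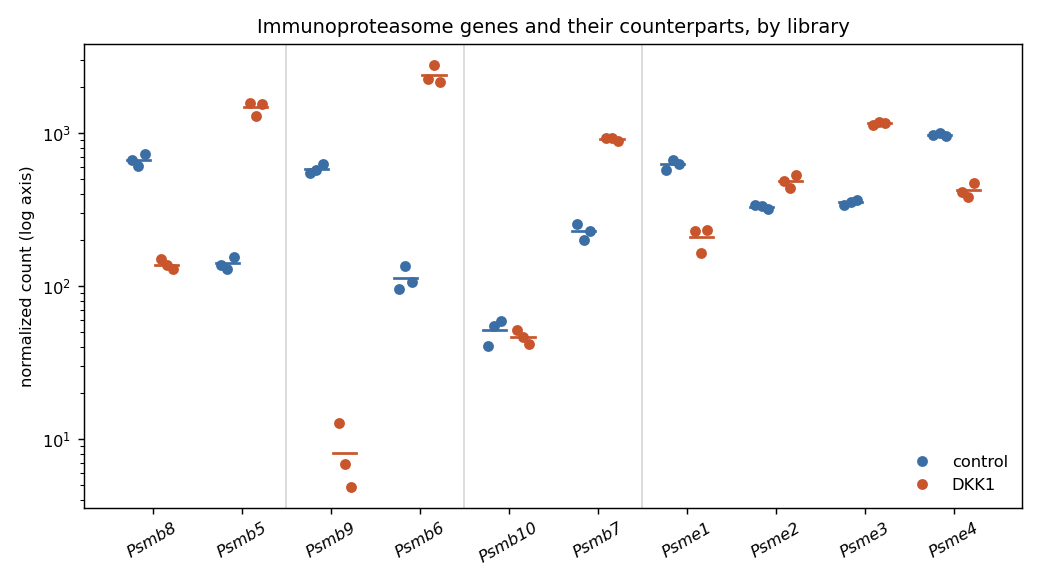
Normalized counts (log axis) of the immunoproteasome genes and of their constitutive counterparts in each library, one point a library and a line at each group's mean, with control in blue and DKK1 in orange. The DKK1 points of Psmb9 sit between 4.90 and 12.7, those of Psmb6 between 2174 and 2798, and the groups overlap for Psmb10.

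The 3 constitutive catalytic subunits all rose, beside 35.1% of all genes, and by more than the other core subunits did in the median. Psmb6 rose from 95.5, 136 and 106 to 2258, 2798 and 2174. No DKK1 library came near a control library, and the mean was 21.4-fold higher (113 ± 21.1 to 2410.3 ± 339, log2 change 4.41, SE 0.15, limma adjusted p = 7.55e-09). Psmb5, the subunit inhibited by bortezomib, rose from 138, 131 and 156 to 1577, 1301 and 1553. Its libraries were equally separated, at a 10.4-fold higher mean and a log2 change of 3.37 (SE 0.11, limma adjusted p = 6.06e-09). Psmb7 rose least of these, from 256, 202 and 230 to 927, 935 and 897. Its mean was 4.01-fold higher and the log2 change 2.01 (SE 0.10, limma adjusted p = 1.1e-07). These genes lie at chr11:70525367-70527858 (Psmb6, plus strand), chr14:54614119-54618022 (Psmb5, minus strand) and chr2:38588036-38644087 (Psmb7, minus strand). Psmb5 shares 109 exonic bases with the microRNA gene Mir686 on the same strand and Psmb7 shares 405 with Nek6 on the other.

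Because library scaling cancels in a ratio of genes of the same library, each immunoproteasome catalytic gene was set against the constitutive gene whose product it replaces, and Psme1 and Psme2 against the other PA28 gene, Psme3. The log2 ratio of Psmb8 to Psmb5 was 2.24 ± 0.02 (SD, n = 3) in control and -3.40 ± 0.17 in DKK1, a 49.8-fold fall. For Psmb9 to Psmb6 it went from 2.38 ± 0.28 to -8.12 ± 0.65, a log2 difference of -10.50, and of -9.36 with a pseudocount of 10. The ratio of Psmb10 to Psmb7 went from -2.14 ± 0.42 to -4.27 ± 0.14, a 4.37-fold fall in which Psmb10 itself did not pass the test. In the PA28 activators, Psme1 to Psme3 went from 0.82 ± 0.09 to -2.49 ± 0.30 and Psme2 to Psme3 from -0.09 ± 0.11 to -1.27 ± 0.15. Psme2 itself rose (1.47-fold), by less than Psme3 (3.30-fold). All 5 ratios were separated without overlap, each with an exact two-sided permutation p of 0.1 (0.1 after adjustment over the 5), which is the smallest p that 3 libraries against 3 can give. Every counterpart gene itself rose, and how often ratios of other gene pairs separate was not computed.

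Put as a share of each pair's level per kilobase of transcript, the chymotrypsin-position pair held 72.7%, 72.2% and 72.2% of Psmb8 in control and 4.98%, 5.51% and 4.39% in DKK1. In the caspase-position pair Psmb9 held 77.3%, 71.3% and 77.9% in control and 0.330%, 0.145% and 0.133% in DKK1. Control libraries thus carried more immunoproteasome than constitutive transcript at those positions and DKK1 libraries the reverse. The trypsin position differed: Psmb10 held 12.3%, 19.3% and 18.6% of its pair in control, and 4.74%, 4.23% and 3.94% in DKK1.

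**Figure D3:**
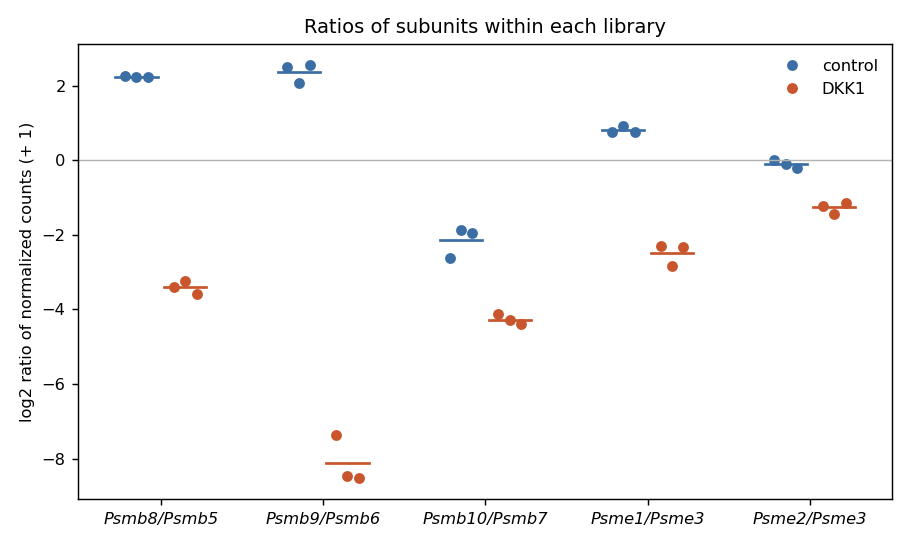
The log2 ratio of each immunoproteasome gene to its counterpart (Psme3 for Psme1 and Psme2) in each library, one point a library, for 5 pairs. The DKK1 points lie below the control points in all 5 pairs, by -1.17 for Psme2 to Psme3 and by -10.50 for Psmb9 to Psmb6 in the mean.

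Among the activators, Psme1 (PA28 alpha) fell while its partner rose. Psme1 had normalized counts of 578, 672 and 629.6 in control and 231, 166 and 234 in DKK1. The groups did not overlap, and the mean was 2.98-fold lower (-1.58 on the log2 scale, SE 0.14, limma adjusted p = 7.1e-06). The window around the RefSeq start of Psme1 holds one of the 5 matches to the interferon-stimulated element, at bases 9 to 18 after that start. It is read on the other strand and in capitals here (chr14:55578493-55578522). GENCODE places the start of Psme1 (ENSMUSG00000022216, chr14:55578123-55581529, plus strand) further upstream, so the site lies inside that span. The other matches lie in Psmb3, Psmd4 and Psmd9, which rose, and in Psmg4, which did not pass.
Psme1: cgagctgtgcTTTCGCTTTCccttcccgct
Psme2 (PA28 beta, chr14:55587441-55591113, minus strand) rose from 343, 335 and 319 to 487, 441 and 536, with a 1.47-fold higher mean (log2 change 0.55, SE 0.10, limma adjusted p = 0.000697). That value is uncertain, since the transcripts of Psme2 and Psme2b are identical at 789 of 794 aligned bases (99.4%) and reads could be split between them. Psme2b fell from 265, 198 and 250.2 to 132, 136 and 127 (log2 change -0.84, limma adjusted p = 0.000456), a call that ended with equal total reads (adjusted p = 0.0720). Summed, the pair had 607, 533 and 569 in control and 619, 577 and 662 in DKK1. These sums overlapped (exact two-sided permutation p = 0.2).

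Psme3, the nuclear PA28 gamma, rose from 339, 356 and 369 to 1140.4, 1192 and 1178. Its groups were far apart, with a 3.30-fold higher mean (log2 change 1.72, SE 0.07, limma adjusted p = 3.58e-08). Psme4 (PA200), an activator that caps the core without ATP, fell from 971, 1008 and 966 to 411, 385 and 474. Its mean was 2.32-fold lower (-1.22 on the log2 scale, SE 0.09, limma adjusted p = 1.95e-06), and it was 1 of the 2 members outside the immunoproteasome set that fell, with Psme2b. Psmf1 (PI31), which inhibits the isolated core, had 57.1, 49.2 and 41.4 in control and 32.8, 37.1 and 36.7 in DKK1, a log2 change of -0.45 that did not pass (limma adjusted p = 0.0988) and was 0.0698 with equal total reads. Psme3ip1, which binds PA28 gamma, rose 1.92-fold, and Psmc3ip, a meiotic recombination factor named for its contact with an ATPase, rose 2.21-fold.

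All 6 ATPases of the 19S base, the ring that unfolds substrates and opens the core, rose, beside 35.1% of all genes. Their median log2 change was 2.09. The largest rise was that of Psmc5, from 93.3, 98.3 and 81.8 to 680.5, 791 and 669.5. No libraries of the groups overlapped, and the mean was 7.83-fold higher (log2 change 2.96, SE 0.12, limma adjusted p = 2.38e-08). The smallest was Psmc6, at 3.83-fold, with Psmc1, Psmc4, Psmc3 and Psmc2 between them at 3.88, 4.28, 4.30 and 5.17-fold.

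The 11 other subunits of the regulatory particle among the 51 members also all rose, beside 35.1% of all genes. Their median log2 change was 2.30. Psmd7, the partner that positions the deubiquitinase Psmd14, rose most, from 78.0, 82.7 and 81.8 to 868, 736 and 912. The control libraries lay within a narrow band, and the mean was 10.4-fold higher (log2 change 3.35, SE 0.11, limma adjusted p = 7.48e-09). Psmd1, a large scaffold of the base, rose 8.50-fold, Psmd8, a lid subunit, 7.02-fold, and Psmd14 itself 4.06-fold. Rises were smaller for Psmd4, a ubiquitin receptor (2.03-fold), and for the lid subunits Psmd6 (1.98-fold) and Psmd13. Psmd13 rose least, from 298, 322 and 320.2 to 563, 455 and 618 (1.74-fold, log2 change 0.79, limma adjusted p = 0.000268).

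The outer alpha ring, which gates the core, was less even. Of its 7 tested subunits 6 rose, beside 35.1% of all genes, with a median log2 change of 1.35 over the 7. Psma5 rose most, from 75.8, 119.5 and 103 to 615, 511 and 656 (5.97-fold, log2 change 2.58, SE 0.17, limma adjusted p = 1e-06). Psma4, Psma6, Psma2 and Psma3 rose 3.52, 2.65, 2.55 and 2.33-fold, and Psma7 1.38-fold. Psma1 alone did not pass: it had 501, 548 and 510.3 in control and 482, 473 and 492 in DKK1, with a log2 change of -0.11 (limma adjusted p = 0.242). With equal total reads Psma1 rose instead, by 0.42 with an adjusted p of 0.00183. Psma8, the testis form of an alpha subunit, had 1 read in control and 2 in DKK1 and was not tested. The 4 beta subunits that carry no active site all rose, beside 35.1% of all genes: Psmb4 3.03-fold, Psmb2 2.48-fold, Psmb1 2.17-fold and Psmb3 1.56-fold. Psmb11, the thymus form, had 0 and 2 reads and was not tested.

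Since levels of different genes compare only per length, mean normalized counts were divided by the kilobases of each gene's principal transcript. The 6 ATPases, which are present in equal numbers in the ring, spanned a 2.45-fold range in control, from 69.3 per kb (Psmc5) to 169.5 (Psmc1), and a 1.46-fold range in DKK1, from 451 (Psmc4) to 658 (Psmc1). The 14 constitutive core subunits spread the other way, from a 6.12-fold range in control (80.4 for Psma5 to 492 for Psmb3) to a 9.87-fold range in DKK1 (306 for Psma2 to 3020.4 for Psmb6). In control, Psmb8 and Psmb9 stood at 412 and 433 per kb, above the 157 and 141 of Psmb5 and Psmb6. In DKK1 they stood at 85.2 and 6.03, against 1643 and 3020.4. Psmb10 stood low in both, at 39.3 and 35.7. No test was run on these ranges.

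**Figure D4:**
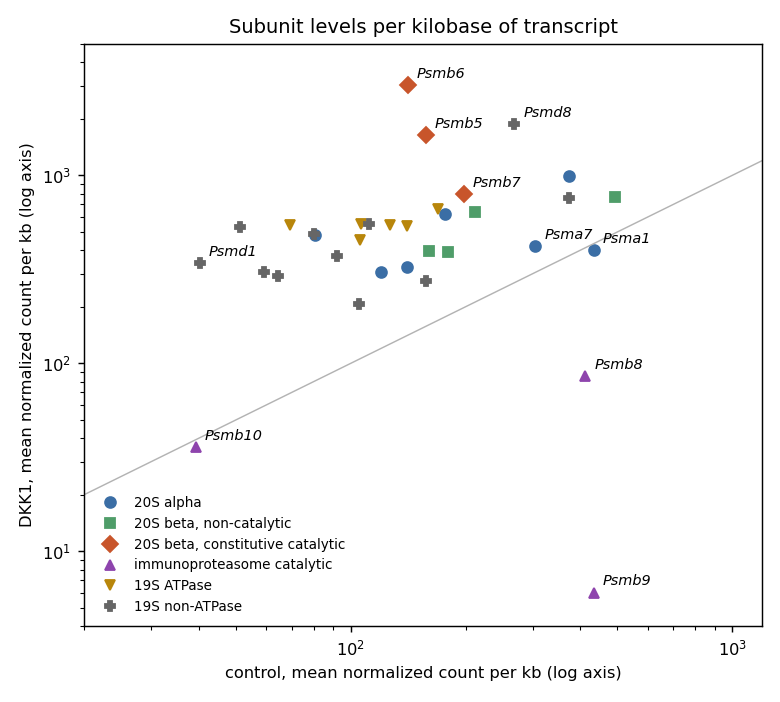
Mean normalized count per kilobase of transcript in control (horizontal, log axis) and in DKK1 (vertical, log axis), one point a core or regulatory subunit, and the line marks equal levels. Psmb5 and Psmb6 reach 1643 and 3020.4 per kb in DKK1, while Psmb8 and Psmb9 lie below the line and Psmb10 just under it.

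The chaperones that assemble the particle rose for the most part, 6 of 7, beside 35.1% of all genes, with a median log2 change of 1.70. Of the base chaperones Psmd9, Psmd10 and Psmd5 rose 3.81, 3.27 and 1.49-fold, and of the core chaperones Psmg1 and Psmg3 rose 2.93 and 2.12-fold. Psmg2, which pairs with Psmg1 to seed the alpha ring, had 0, 1.12 and 3.94 in control and 59.6, 34.3 and 44.9 in DKK1. It was nearly unread in control, with 5 reads against 160. Psmg2 had a 27.5-fold higher mean and a pooled ratio, scaled as for Psmb9, of 29.4 (95% exact interval 12.3 to 91.6, counting error only). Its log2 change of 4.40 (SE 0.59, limma adjusted p = 0.000124) depends on the pseudocount, at 5.84 with 0.1 and 2.26 with 10, and was 4.99 without control replicate 3, which holds most of the control reads. Psmg4 had 3.29, 8.94 and 0 in control and 9.69, 8.24 and 16.3 in DKK1, overlapped between groups and did not pass (log2 change 1.78, limma adjusted p = 0.0700). Without control replicate 2 it was 2.53 and passed (adjusted p = 0.0179), and without control replicate 3 it was 0.87.

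Of 19 other genes that bind, build or feed the proteasome, 18 were tested (Paaf1 was not analysed here). Of these 12 rose, 1 fell and 5 did not pass, beside 35.1% of all genes that rose and 36.1% that fell. The 18 had a median log2 change of 1.09. With equal total reads 17 of the 18 rose and 1 fell, beside 43.6% and 29.2% of all genes. The 4 with the smallest adjusted p were the shuttle factors Rad23b (6.87-fold) and Ubqln4 (6.09-fold), the segregase Vcp (3.18-fold) and its cofactor Nploc4 (3.59-fold). Usp14, a deubiquitinase of the 19S particle named after its values were seen, rose from 29.6, 29.0 and 40.4 to 424, 348 and 429. Also named after their values were seen, the ubiquitin receptor Adrm1 rose 3.05-fold, and Pomp, the maturation factor of the core, had 206, 169.8 and 205 in control and 234, 227 and 238 in DKK1. Pomp did not pass (log2 change 0.27, limma adjusted p = 0.0617) but rose by 0.80 with equal total reads (adjusted p = 0.000324). Sem1, a small lid subunit outside the naming rule and likewise named afterwards, was the gene that fell, from a mean of 1287 to 563.

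Of 6 genes for ubiquitin precursors and activating enzymes 2 fell and 4 did not pass, beside 71.2% of all genes that passed in either direction. The 6 had a median log2 change of -0.15. With equal total reads 4 of the 6 rose and 2 fell, beside 43.6% and 29.2% of all genes. Those that fell were the precursors Ubb, from a mean of 11127 to 6731, and Rps27a, from 2679 to 1195. The activating enzymes Uba1 and Uba6 did not pass (limma adjusted p = 0.0644 and 0.0611), but both calls depended on the setting. Uba1 was lower in edgeR and DESeq2 (adjusted p = 0.0279 and 0.0401) and higher with equal total reads (0.35, limma adjusted p = 0.0125). Uba6 rose with equal total reads (0.83, limma adjusted p = 0.000842) and without DKK1 replicate 2 (0.42, limma adjusted p = 0.00713).

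Of 11 genes of transcriptional control of the proteasome 9 rose and 2 fell, beside 35.1% and 36.1% of all genes. The 11 had a median log2 change of 0.51. Maff, a small Maf partner of the Nfe2l factors, rose from 15.4, 25.7 and 28.6 to 3585, 5629 and 3637, a 185-fold higher mean (log2 change 7.48). Ngly1, the glycanase that activates the Nfe2l1 protein, fell from 1284, 1109 and 1177 to 186, 218 and 184 (6.07-fold lower). Mafg and Nfya rose, with log2 changes of 0.93 and 0.63. Nfe2l1, named after its values were seen, rose from 516, 583 and 636 to 1724, 3477 and 1695 (log2 change 1.91, limma adjusted p = 0.000188). Its DKK1 replicate 2 stood above the others of its group, and without that library the log2 change was 1.57. Nfe2l2, also named afterwards, rose 1.29-fold.

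Upstream of the immunoproteasome, 12 of 15 interferon pathway genes fell, 1 rose and 2 did not pass, beside 36.1% of all genes that fell and 35.1% that rose. The 15 had a median log2 change of -1.21. Socs1, named after its values were seen, was the gene that rose (3.45-fold). With equal total reads 10 of the 15 fell and 2 rose, beside 29.2% and 43.6% of all genes. Irf9, a transcription factor of type I interferon signalling, fell 23.9-fold in the mean, and Irf2 and the receptor chain Ifngr1 had log2 changes of -3.28 and -2.82. Irf1, which acts on the Psmb9 and Tap1 promoters and was named after its values were seen, fell from 2782, 2687 and 2653 to 795, 1331 and 776 (log2 change -1.53, and -1.78 without DKK1 replicate 2). Nlrc5, the MHC class I transactivator named in the same way, was 2.52-fold lower.

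Genes of peptide loading, which use the proteasome's products, went both ways: of 12, 5 rose, 6 fell and 1 did not pass, with a median log2 change of -0.29, beside 35.1% and 36.1% of all genes. With equal total reads 6 rose and 5 fell, and the median was 0.24. Besides Tap1, the MHC class I heavy chain H2-D1 fell from a mean of 33047 to 8954 and the aminopeptidase Lnpep from 9948 to 1687. Canx, the chaperone calnexin, rose 11.1-fold in the mean. Tapbp (tapasin), named after its values were seen, rose 2.24-fold.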

How the data were processed

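The deposited table gives 1 normalized count per gene and library, a signal that is never negative, made by the authors. Per the submitters' processing notes the build was mm10. For the aligner, counter, annotation, scaling method and strandedness, nothing is given in the sources used here. Values of 3 more columns, which fit the labels of no sample here, were left out. The values step in whole reads (100% within 0.001 reads of a whole number), which let reads be recovered.

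From these values, log2(normalized count + 1) of genes at 1 or more in at least 3 of 6 libraries (16265 genes) was tested with limma 3.58.1 in R 4.3.3 (trend, robust), two-sided, with Benjamini-Hochberg adjustment and a threshold of 0.05. In a simulation of 15509 genes with an assumed spread, 66, 67 and 67 genes were changed by 0.5, 1 and 2 (log2), none of them low in control. Of these 16.7%, 82.1% and 100% were called. Far more genes were called in the data, so these rates need not hold here. Gene ratios had exact permutation tests. edgeR 4.0.16 and DESeq2 1.42.0 on recovered reads, other pseudocounts, filters and scalings, a replicate block and leaving out each library were alternatives. Same-numbered libraries did not deviate together (correlations of -0.005, 0.007 and 0.017). Counting noise can hide a pairing in such a check, so it cannot exclude one. The numbers were used as names of libraries, without pairing. Positions and transcript lengths are from GENCODE M21 (GRCm38), matched by identifier without version, which may not be the counting annotation. Reads of pseudogenes named for members came to 9, against 143529 for the members.

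The members and lists were chosen with earlier results of these data known. All members were accounted for, with full values for the immunoproteasome set, its counterparts and Psme4, the largest rise and fall and each unpassed member of a role, and up to 4 genes of smallest adjusted p in each other list. A gene that this rule names is not reported here. Counting intervals cover counting error only, since reads carry no molecular identifiers.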

Additional observations from a re-analysis of the deposited data

How the results depend on the processing

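Under each alternative run for these counts, the immunoproteasome set had 1 member that rose and 3 that fell, and 39 to 41 of the other members rose. Their count of members that fell was 2, except 3 without trend and robust fitting (Psmf1 added) and 1 with equal total reads (Psme2b lost). That scaling turned the sign of Psma1 to 0.42, Psmb10 to 0.40, Psmf1 to 0.0698 and Uba1 to 0.35, since it raised every member by a median of 0.53. Leaving out 1 library each gave 39 to 40 other members that rose, with 5409 to 5651 genes that rose and 5483 to 5895 that fell over all genes, against 5709 and 5873. No pairing is documented: with a replicate block, 39 other members rose and 2 fell, and over all genes 5630 rose and 5817 fell. edgeR called 5503 genes higher and 5897 lower, and DESeq2 5138 and 5541. In the lists of other genes, Ube3a, Ddi2 and Pdia3, which rose by limma, passed in neither of these count tests. Their adjusted p was 0.0527, 0.0956 and 0.0598 in edgeR and 0.128, 0.214 and 0.114 in DESeq2. Ufd1, which also rose by limma, did not pass in DESeq2 (adjusted p = 0.0865). These genes were named after their values were seen. Psmg4 changed its call with the pseudocount of 10 (0.64, adjusted p = 0.0440) and with equal total reads (2.18, adjusted p = 0.0277), and Psmf1 without trend and robust fitting (adjusted p = 0.0447), and the cause was not tested. Low depth bears on the tested members Psmb9 in DKK1, Psmg2 and Psmg4, which rest on 28 reads in DKK1 and on 5 and 11 in control, and left Psma8 and Psmb11 untested.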
